A study of Mus musculus with 130 samples.

Results

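The 10 genes of the NRF2 antioxidant response followed here in mouse liver were Nqo1, Gclc, Gclm, Srxn1, Txnrd1, Gsr, G6pdx, Ugdh, Abcc4 and Nfe2l2, which encodes NRF2 itself. They were taken as a named list, which was drawn up with earlier results of these data known, and all 10 were found among the 35274 gene identifiers of the diet study and the 35711 of the strain panel. The libraries came from liver RNA of 130 male mice. One set were C57BL/6J mice on 5 diets, 3 mice each: chow, a diet with 50 ppm iron that is labelled sufficient, one with 500 ppm that is labelled elevated, one with 2% carbonyl iron (20000 ppm), and the 2% diet made with cellulose as fiber. The other set is a panel of 114 inbred strains that were on chow for 4 weeks and on the 2% iron diet for 6. A strain was represented by 1 mouse, and 129X1/SvJ by 2. The panel held 56 BXD strains (from C57BL/6J and DBA/2J), 20 AXB/BXA strains (from A/J and C57BL/6J), 4 BXH strains (from C57BL/6J and C3H/HeJ), 3 CXB strains (from BALB/cBy and C57BL/6) and 31 other inbred strains. The like-named lines AXB19/PgnJ, AXB19a/PgnJ and AXB19b/PgnJ were counted as separate strains, as were BXD48/RwwJ and BXD48a/RwwJ. Every panel mouse ate the iron diet, so the panel has no iron-poor control, and a strain rests on a single mouse.

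NRF2 is a transcription factor that the adaptor KEAP1 holds in the cytoplasm and passes to a CUL3 ubiquitin ligase for degradation. Oxidants and electrophiles modify KEAP1, NRF2 then collects in the nucleus, pairs with a small MAF protein and binds antioxidant response elements in its target genes. In the liver these targets make glutathione, recycle thioredoxin and glutathione, supply NADPH, and reduce, conjugate or export reactive compounds.

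In GRCm38 the detoxifying enzyme gene Nqo1 lies at chr8:107388225-107403206 (minus strand). Of the glutathione genes, Gclc at chr9:77754535-77794485 (plus strand), Gclm at chr3:122245557-122270732 (plus strand) and Gsr at chr8:33652523-33698163 (plus strand) lie on different chromosomes. Of the thioredoxin genes, Srxn1 at chr2:152105516-152111376 (plus strand) and Txnrd1 at chr10:82833951-82897712 (plus strand) do so too. The others are G6pdx at chrX:74409483-74429194 (minus strand), Ugdh at chr5:65413221-65435949 (minus strand), Abcc4 at chr14:118482692-118706219 (minus strand) and Nfe2l2 at chr2:75675513-75704641 (minus strand).

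The antioxidant response element is written here by its core TGACNNNGC, searched on both strands in the RefSeq promoter windows of GRCm38.p6, which run from 250 bases before a transcript start to 50 after it. Of the 10 genes, 8 had a window and 7 of those 8 held the core, against 13.99% of the 27025 genes with a window. Counted by window, 8 of the 11 member windows held it, against 12.4% of the 32851 windows. Gclc and Gsr had no window, and Nqo1 was the gene with a window and no match. Txnrd1 had windows at start sites 1, 2 and 3, and only that at start site 2, shown here, held a match. The 250 bases before the start are shown for the members whose element lies there and whose values the results turn on, with Nqo1 as the gene without a match. Capitals mark the core, or its reverse complement where it lies on the opposite strand.
Nqo1 (chr8:107403206-107403455, minus strand): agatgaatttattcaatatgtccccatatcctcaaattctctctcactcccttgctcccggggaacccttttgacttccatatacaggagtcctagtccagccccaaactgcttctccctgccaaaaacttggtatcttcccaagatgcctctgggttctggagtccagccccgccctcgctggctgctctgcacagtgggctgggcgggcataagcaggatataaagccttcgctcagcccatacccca
Gclm (chr3:122245307-122245556, plus strand): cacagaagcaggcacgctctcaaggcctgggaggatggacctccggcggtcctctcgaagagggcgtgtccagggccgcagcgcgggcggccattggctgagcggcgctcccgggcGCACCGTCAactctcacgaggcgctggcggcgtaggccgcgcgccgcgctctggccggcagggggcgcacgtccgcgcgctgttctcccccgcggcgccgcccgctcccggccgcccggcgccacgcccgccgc
Txnrd1 (chr10:82858956-82859205, plus strand): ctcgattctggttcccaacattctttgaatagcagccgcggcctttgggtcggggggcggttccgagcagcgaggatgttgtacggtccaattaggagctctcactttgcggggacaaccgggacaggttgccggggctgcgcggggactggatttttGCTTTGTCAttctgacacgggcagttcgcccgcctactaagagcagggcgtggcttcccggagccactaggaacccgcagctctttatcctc
G6pdx (chrX:74428881-74429130, minus strand): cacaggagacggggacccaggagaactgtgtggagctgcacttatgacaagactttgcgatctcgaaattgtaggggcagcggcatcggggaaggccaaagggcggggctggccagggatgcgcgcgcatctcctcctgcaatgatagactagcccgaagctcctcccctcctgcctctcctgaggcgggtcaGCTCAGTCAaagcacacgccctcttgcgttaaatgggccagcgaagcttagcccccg
Ugdh (chr5:65435843-65436092, minus strand): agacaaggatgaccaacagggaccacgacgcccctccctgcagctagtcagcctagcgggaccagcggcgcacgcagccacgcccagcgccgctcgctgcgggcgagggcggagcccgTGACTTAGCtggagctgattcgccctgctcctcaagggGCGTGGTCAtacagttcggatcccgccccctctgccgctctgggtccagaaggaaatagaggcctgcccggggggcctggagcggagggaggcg
Abcc4 (chr14:118706220-118706469, minus strand): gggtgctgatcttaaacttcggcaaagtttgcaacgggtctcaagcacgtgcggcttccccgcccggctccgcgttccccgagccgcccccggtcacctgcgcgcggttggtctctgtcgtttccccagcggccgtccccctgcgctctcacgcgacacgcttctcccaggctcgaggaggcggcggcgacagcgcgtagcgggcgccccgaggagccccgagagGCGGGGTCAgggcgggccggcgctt
The core stood 134 bases before the start in Gclm, 92 in Txnrd1, 57 in G6pdx, 132 and 94 in Ugdh and 25 in Abcc4. The Srxn1 match lay 29 bases after the start, the Nfe2l2 match 240 before it, and a match at another Abcc4 start 23 before it. A related motif, the AP-1 site TGACTCA with its reverse TGAGTCA, was in 1 of the 11 member windows and in 5.20% of all windows, and none of the matched cores overlapped it. A match describes letters in a short window, not a bound site, and the absence of one says only that these letters are not in that window.

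The total count of a library lay between 10420708 and 20357169 for the diets, and between 9407880 and 20572879 for the panel. Levels are CPM, the counts of a gene per 1000000 counts of its library after scaling with TMM factors, or TPM, the deposited transcript share per 1000000 corrected for length, where genes are compared with each other. Every test named as edgeR is its quasi-likelihood test, with p-values adjusted over all genes tested, and a gene is called at an adjusted p under 0.05. Markers of hepatocytes summed to between 65623 and 91370 CPM in the 15 diet libraries. Replicate 2 of the 500 ppm group, the deepest diet library, stood apart from its group: its macrophage markers summed to 233 CPM against 113 and 145 in the other two, and its neutrophil markers to 9.49 CPM against 0.344 and 0.503. In the panel, the library labelled BXD65/RwwJ held 3.94 CPM of Y-linked transcripts against 118 to 328 in the others, which goes against its label of a male mouse. In bulk tissue, fewer cells of a type and less RNA per cell cannot be told apart.

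On the 50 ppm diet the order of the 10 genes, on the TPM scale that corrects for length, was led by Gclm at 226 ± 29.01 TPM (mean ± SD, n = 3, as for the others), followed by Gclc at 76.8 ± 6.55, Ugdh at 45.5 ± 6.98 and Txnrd1 at 34.05 ± 4.40 TPM. Below these came Gsr at 28.8 ± 1.75, Nfe2l2 at 26.7 ± 1.61, Srxn1 at 16.3 ± 4.31, G6pdx at 5.30 ± 4.34, Nqo1 at 2.45 ± 0.582 and Abcc4 at 0.422 ± 0.0910 TPM. The range over mice of Gsr overlapped those of Txnrd1 and Nfe2l2, and the ranges of G6pdx and Nqo1 overlapped. Within each of the 3 mice Txnrd1 was above Gsr and Gsr above Nfe2l2. G6pdx was below Nqo1 in replicate 1 (1.58 against 1.83 TPM). Differences between these neighbours were not tested. In the panel the same genes led, with medians of 242 TPM for Gclm, 99.0 for Gclc and 66.8 for Ugdh, and Abcc4 was again lowest at 1.84 TPM.

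**Figure D1:**
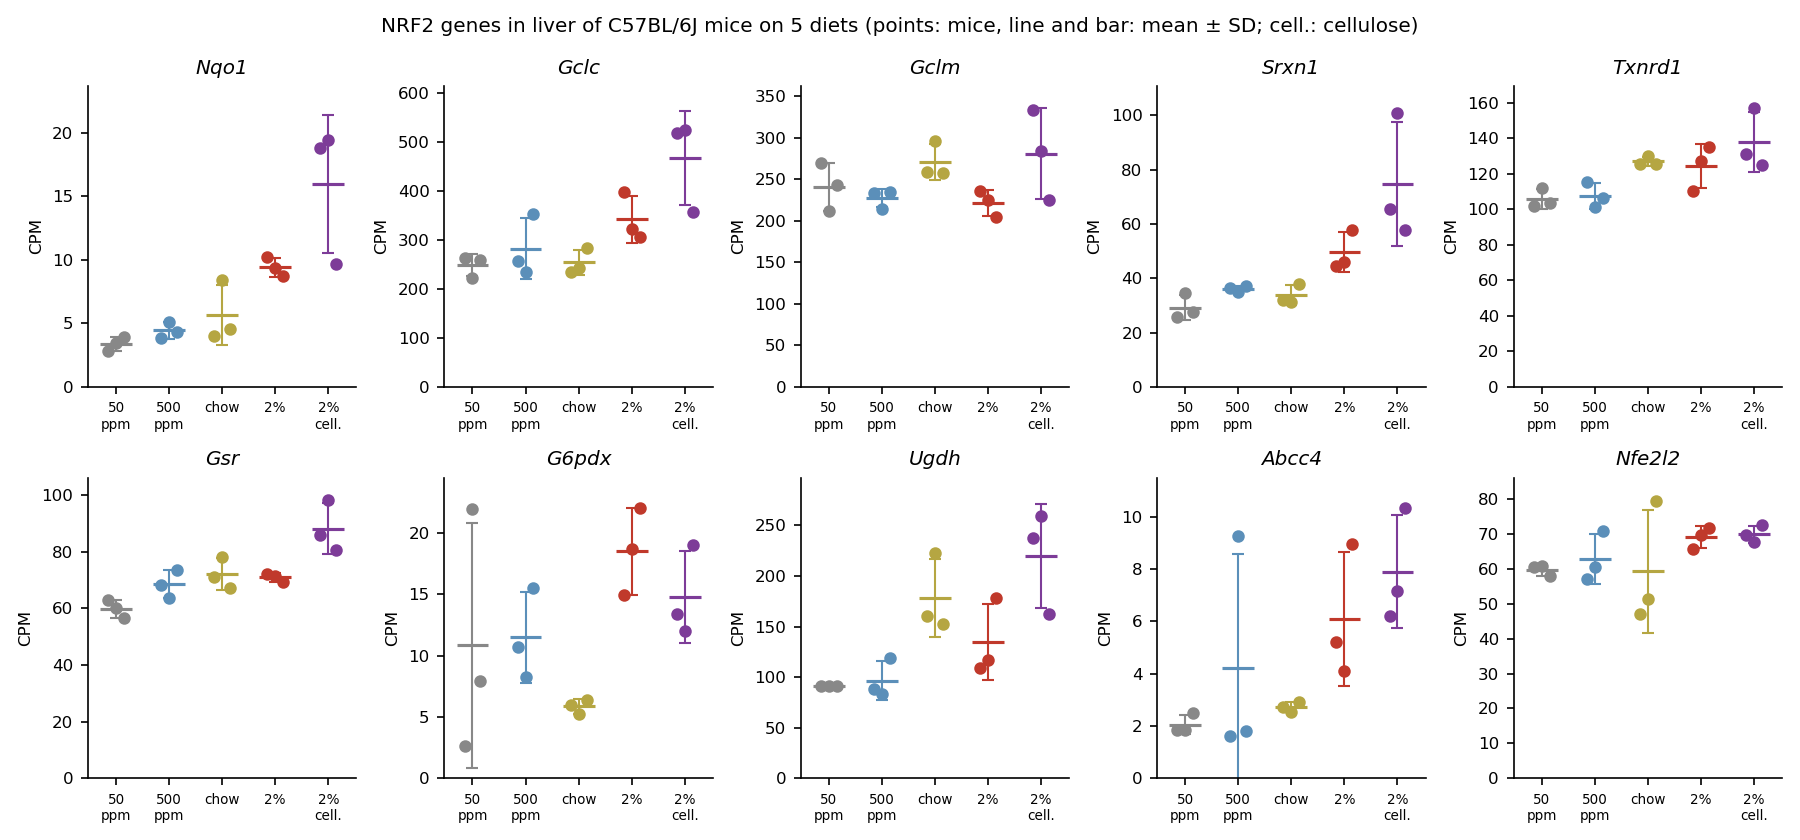
Level of each gene in CPM (vertical axes from 0) in C57BL/6J liver on 5 diets (horizontal axes), with points for the 3 mice and a line and bar for the mean and SD, the bar of Abcc4 on 500 ppm running below the axis. Nqo1, Gclc, Srxn1, Gsr, Ugdh, Abcc4 and Nfe2l2 lie higher in all 6 mice on 2% iron than in all 3 on 50 ppm. Gclm, Txnrd1 and G6pdx overlap. Of all genes, 19.2% lay above 50 ppm without overlap on 2% iron, and 22.4% with cellulose.

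The main dietary question was what 2% carbonyl iron does to these genes against the sufficient diet. Nqo1 and Srxn1 were higher, and no member was lower: edgeR called 2 of the 10, against 15.7% of all 13560 genes tested in either direction and 8.52% called higher. Groups did not overlap, with 2% iron above, for 7 of the 10 (Nqo1, Gclc, Srxn1, Gsr, Ugdh, Abcc4 and Nfe2l2), against 19.2% of all genes. Of the 10 fitted changes 9 were above 0, and the median of the 10 was 0.51 on the log2 scale beside 0.01 over all genes. At an unadjusted p under 0.05, 7 of 10 members passed, against 30.2% of all genes.

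Nqo1 encodes a reductase that turns quinones into hydroquinones without a radical intermediate. It read 2.81, 3.48 and 3.89 CPM in the mice on 50 ppm and 10.2, 9.33 and 8.70 CPM in those on 2% iron. Every iron-fed mouse was well above every control, and both groups were tight. The log2 change was 1.46 (SE 0.30, 95% interval 0.82 to 2.11, edgeR adjusted p 0.0060), and Nqo1 stayed called when each mouse of the 2 groups was left out in turn, at 1.35 to 1.58.

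Gclc and Gclm encode the catalytic and modifier subunits of glutamate-cysteine ligase, the rate-limiting enzyme of glutathione synthesis. Gclc read 264, 223 and 260.1 CPM on 50 ppm and 397, 322.1 and 307 CPM on 2% iron, and Gclm 269, 211 and 243 CPM against 235, 225 and 204 CPM. The Gclc groups did not overlap and those of Gclm did, and a difference between the subunits was not tested. Neither was called, with Gclc at 0.46 (SE 0.17, interval 0.08 to 0.83, edgeR adjusted p 0.0928) and Gclm at -0.12 (SE 0.13, interval -0.41 to 0.16, edgeR adjusted p 0.579).

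Srxn1 encodes sulfiredoxin, which repairs over-oxidized peroxiredoxins. It read 25.8, 34.4 and 27.4 CPM on 50 ppm and 44.6, 46.1 and 57.9 CPM on 2% iron. Each 2% mouse was above each 50 ppm mouse, and the log2 change was 0.76 (SE 0.18, interval 0.37 to 1.16, edgeR adjusted p 0.0132). The call rested on single mice: without replicate 3 of the 2% group the change was 0.63 (edgeR adjusted p 0.0620) and without replicate 1 of the 50 ppm group 0.68 (edgeR adjusted p 0.0641). On log2(TPM + 1) with limma it was 0.54 (adjusted p 0.186).

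Txnrd1 encodes cytosolic thioredoxin reductase and Gsr glutathione reductase, and both draw on NADPH. Txnrd1 read 102, 112.2 and 103.7 CPM on 50 ppm and 111, 127 and 135 CPM on 2% iron, so 1 iron-fed mouse lay inside the range of the controls. Gsr read 62.8, 60.03 and 56.5 CPM against 72.2, 71.3 and 69.3 CPM, close values without overlap. Neither passed, at 0.23 for Txnrd1 (SE 0.10, edgeR adjusted p 0.137) and 0.25 for Gsr (SE 0.09, edgeR adjusted p 0.0810).

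G6pdx encodes glucose-6-phosphate dehydrogenase, the NADPH-making entry to the pentose phosphate pathway. It shares sequence with the near-identical copy G6pd2, so its counts are uncertain. It read 2.62, 21.9 and 7.96 CPM on 50 ppm and 14.9, 18.7 and 22.02 CPM on 2% iron. Replicate 2 of the 50 ppm group was as high as the iron-fed mice and, relative to its mean, G6pdx spanned the widest range of the 10 genes on that diet. The change was 0.78 (SE 0.47, interval -0.24 to 1.79, edgeR adjusted p 0.292), and without that mouse 1.78 (edgeR adjusted p 0.0116).

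Ugdh makes UDP-glucuronate for conjugation, and Abcc4 encodes an exporter of conjugates and bile acids. Ugdh read 90.8, 91.3 and 91.6 CPM on 50 ppm and 109, 117 and 178 CPM on 2% iron. Abcc4 read 1.84, 1.84 and 2.49 CPM against 5.22, 4.09 and 8.96 CPM. Replicate 3 of the 2% group was the highest for both. The changes were 0.56 for Ugdh (SE 0.22, edgeR adjusted p 0.0969) and 1.56 for Abcc4 (SE 0.56, interval 0.35 to 2.76, edgeR adjusted p 0.0780). Fitted on these 2 groups alone, Abcc4 (edgeR adjusted p 0.0168) and Gclc (0.0451) were called as well, and DESeq2 called Abcc4 (adjusted p 0.0366).

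Nfe2l2 itself read 60.5, 60.9 and 57.8 CPM on 50 ppm and 65.7, 69.7 and 71.8 CPM on 2% iron. The 2% mice were all above the controls, by little: the change was 0.21 (SE 0.15, interval -0.12 to 0.53, edgeR adjusted p 0.380). NRF2 is regulated largely through the stability of its protein, which RNA does not measure.

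The 9 genes of the NRF2 machinery that were listed (Keap1, Cul3, Rbx1, Mafg, Mafk, Maff, Bach1, Sqstm1 and Nfe2l1) gave 2 higher and 0 lower on 2% iron, with a median change of -0.03. Keap1, which encodes the inhibitor, was higher by 0.35 (edgeR adjusted p 0.0219), and Maff, a small MAF partner, by 1.26 (edgeR adjusted p 0.0460). Of 41 other targets, 39 were tested: 9 were higher, 3 lower and 27 not called, and Gpx2 and Ggt1 were too low to test. Over all genes 15.7% were called and 8.52% called higher. The median change of the targets was 0.07 beside 0.01 over all genes. The higher ones were the glutathione transferases Gstm1 (0.56), Gstm2 (0.90) and Gstm3 (1.59), Pgd (1.07), Akr1b8 (3.35), Ces1g (0.51), Hmox1 (2.36), Ftl1 (1.32) and Slc48a1 (0.43). Lower were Mgst1 at -0.60, Gstp1 at -1.06 and Akr7a5 at -0.53. The transferases, Akr1b8, Ces1g and Ftl1 belong to families or have copies of like sequence, so reads can be split among them.

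Hmox1, the heme-degrading oxygenase, read 6.78, 9.67 and 13.6 CPM on 50 ppm and 57.8, 44.003 and 53.5 CPM on 2% iron. Akr1b8, an aldo-keto reductase, read 1.94, 2.61 and 1.82 CPM against 25.6, 21.2 and 18.3 CPM. Both groups were far apart, and the log2 changes of 2.36 for Hmox1 (edgeR adjusted p 0.0084) and 3.35 for Akr1b8 (0.0020) stand beside 1.56 for Abcc4, the largest of the 10 members. In replicate 2 of the 500 ppm group, the library that stood apart, Hmox1 was at 44.7 CPM and Akr1b8 at 10.5 CPM, against 7.14 and 9.49 CPM and 1.38 and 1.73 CPM in its group mates.

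Markers of some other cell types moved with the iron diet, in a contrast where 15.7% of all genes were called. All 8 macrophage markers were higher on 2% iron, from 1.38 for Adgre1 to 3.23 for Marco on the log2 scale, and their summed level ran from 516.9 to 546 CPM on 2% iron, 506 to 768 with cellulose, 122 to 208 on 50 ppm, 113 to 233 on 500 ppm and 139 to 177 on chow. Of 6 erythroid markers 4 were higher and 1 lower, with sums of 320.1 to 475.7 CPM on 2% iron and 68.0 to 109 CPM on 50 ppm. Of 6 hepatocyte markers 0 were called higher and 1, Apoa1, lower, while their sum ran from 86431 to 91370 CPM on 2% iron and from 69577 to 80864 CPM on 50 ppm, without overlap. The endothelial sums, 262 to 285 CPM against 186.3 to 229 CPM, and the proliferation sums, 9.60 to 14.8 CPM against 6.13 to 6.20 CPM, did not overlap either. The stellate and fibroblast sums did overlap, at 236 to 343 CPM against 215 to 315 CPM. So did those of cholangiocytes (7.96 to 10.8 against 8.62 to 13.9 CPM) and lymphocytes (2.56 to 6.13 against 2.42 to 3.77 CPM). The neutrophil markers summed to 3.64 to 13.6 CPM on 2% iron and 0.388 to 0.912 CPM on 50 ppm, and 0 of the 5 tested were called. Of the 7 exocrine pancreas markers, Cpa1, Pnlip and Prss2 were at 0 in all 15 libraries. The sum of the 7 was 4.36 to 5.97 CPM on 2% iron and 6.28 to 9.69 CPM on 50 ppm, without overlap. The part of these cells in the changes of the NRF2 genes was not tested.

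**Figure D2:**
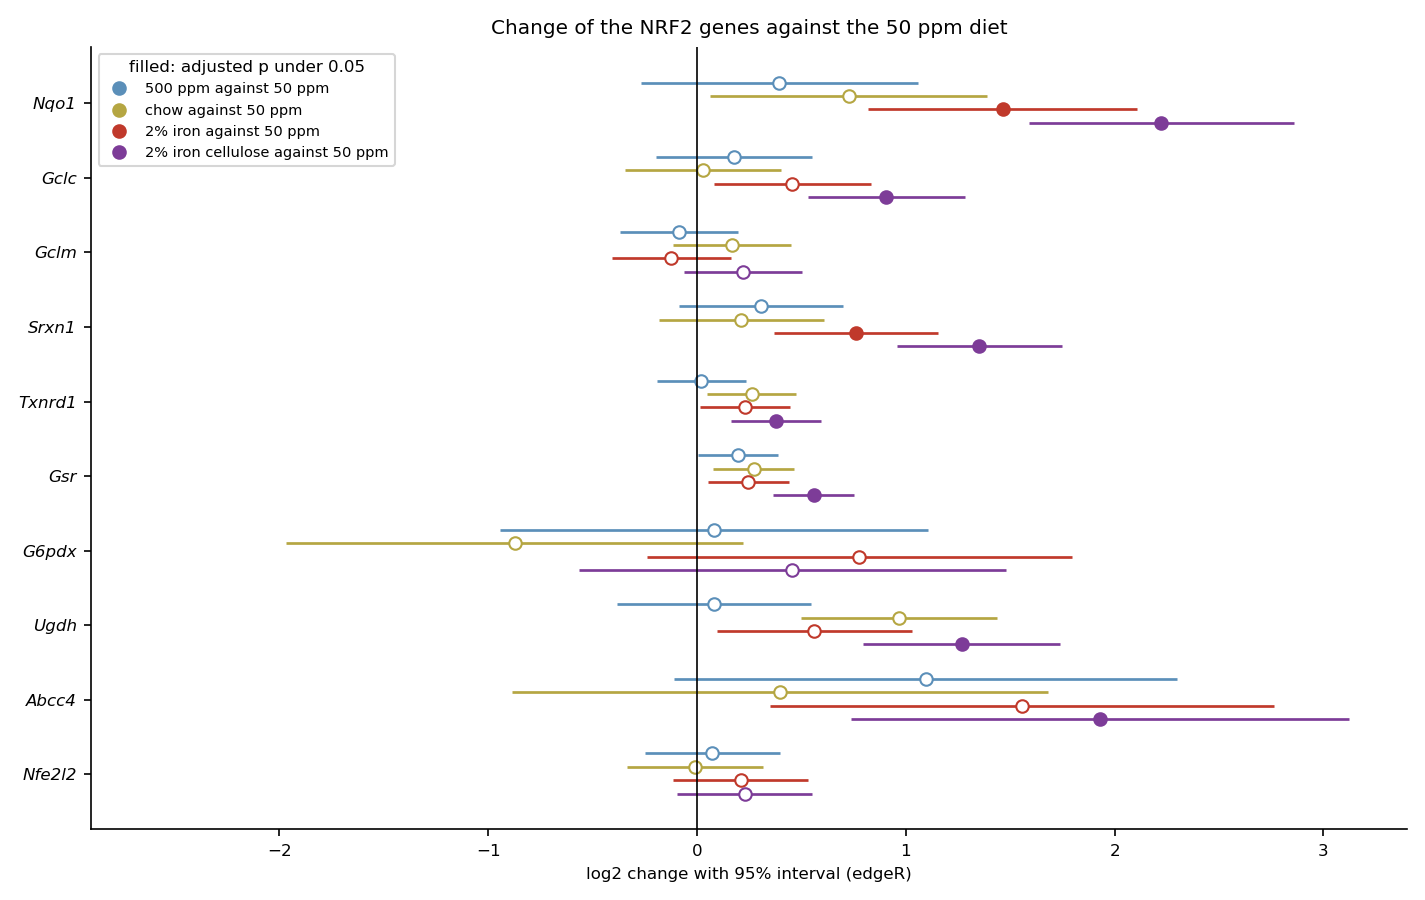
Log2 change of each gene against the 50 ppm diet (horizontal axis) with its 95% interval from edgeR, for 500 ppm, chow, 2% iron and 2% iron with cellulose, where filled points have an adjusted p under 0.05. All 4 changes use the same 3 control mice, and the filled points are Nqo1 and Srxn1 on 2% iron and 7 genes with cellulose.

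The elevated diet asked whether a smaller iron supply moves the same genes. No member was called in 500 ppm against 50 ppm, and neither was any of the 13560 genes (0%, edgeR, and 0 with DESeq2 and with limma). At an unadjusted p under 0.05 there were 428 genes (3.16%), and 1 of the 10, Gsr, at 0.20 (unadjusted p 0.0469, adjusted p 1.0). Srxn1 and Gsr lay above the controls without overlap, against 3.30% of all genes. Srxn1 read 36.3, 35.02 and 37.03 CPM and Gsr 68.2, 63.8 and 73.6 CPM on 500 ppm. Abcc4 read 1.64, 9.25 and 1.80 CPM, a change of 1.10 that turned to -0.26 without replicate 2.

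Set directly against 500 ppm, 2% iron gave 1 member called, Nqo1, beside 11.3% of all genes and 6.59% called higher. Nqo1 read 3.87, 5.13 and 4.31 CPM on 500 ppm, below all 2% mice, for a change of 1.07 (SE 0.28, edgeR adjusted p 0.0264). Srxn1 also did not overlap, at 0.46 (edgeR adjusted p 0.120), against 16% of all genes above without overlap. The Nqo1 call was lost in 5 of 6 fits that left out 1 mouse, each mouse other than replicate 2 of the 500 ppm group, at edgeR adjusted p of 0.0578 to 0.0985. Without that replicate 2, Nqo1 was kept and Abcc4 was called at 1.82 (edgeR adjusted p 0.0037).

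Chow is a natural-ingredient diet that differs from the others in more than iron, and several members were high on it. Ugdh read 160.2, 223 and 152 CPM on chow, above all 3 controls on 50 ppm and overlapping both 2% groups. Nqo1 read 4.04, 8.39 and 4.58 CPM, and Txnrd1 125, 130.0 and 126 CPM. The members above 50 ppm without overlap were 5 (Nqo1, Txnrd1, Gsr, Ugdh and Abcc4), against 8.88% of all genes, and 4 of 10 had an unadjusted p under 0.05, against 10.4%. None was called, in a contrast where 0.391% of all genes were (53 genes). Ugdh came nearest, at 0.97 (SE 0.22, interval 0.50 to 1.44, edgeR adjusted p 0.0903), and was called with no filter on low counts (edgeR adjusted p 0.0365) and with DESeq2 (adjusted p 0.0024). G6pdx lay at -0.87 (SE 0.51, edgeR adjusted p 0.616), but at 0.14 without replicate 2 of the 50 ppm group and at 0.11 with limma on log2(TPM + 1).

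Part of the wider target list was called higher on chow. Of 39 tested targets, 7 were called higher and 0 lower, beside 36 of all 13560 genes called higher. Of the 39 changes 34 were above 0, against 50.8% over all genes, with a median of 0.24 beside 0.00. The 7, named after their values were seen, were Gsta2 (3.18), Gsta4 (1.60), Gstm1 (0.82), Gstm3 (1.85), Aox1 (0.89), Ces1g (0.87) and the exporter Abcc3 (0.76). Macrophage markers gave 0 of 8 called between chow and 50 ppm.

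Against chow as the baseline, 2% iron gave 2 members called higher, Srxn1 and G6pdx, beside 22.8% of all genes and 11.9% called higher. Srxn1 read 32.2, 31.2 and 38.03 CPM on chow, for a change of 0.55 (SE 0.18, edgeR adjusted p 0.0422). G6pdx read 6.02, 5.22 and 6.40 CPM on chow, for a change of 1.65 (SE 0.50, edgeR adjusted p 0.0280), and 0.88 on log2(TPM + 1) with limma (adjusted p 0.133). In that fit Srxn1 was not called either (0.61, adjusted p 0.105), and Nqo1 was (0.77, adjusted p 0.0425). Above without overlap were 5 members (Nqo1, Gclc, Srxn1, G6pdx and Abcc4) and below 1, Gclm, at -0.29 (edgeR adjusted p 0.132), against 20.3% and 19.8% of all genes.

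These calls against chow were thin. The Srxn1 call was lost when any of the 6 mice but replicate 3 of chow was left out (edgeR adjusted p 0.0538 to 0.168), and the G6pdx call when any but replicate 1 of the 2% group was (0.0588 to 0.0915). Without replicate 2 of chow, the mouse highest for Nqo1, that gene was called at 1.11 (edgeR adjusted p 0.0165). Without replicate 3 of chow, where Nfe2l2 read 79.4 CPM against 47.2 and 51.3 CPM in its group mates, Nfe2l2 was called at 0.49 (edgeR adjusted p 0.0048). The other targets had a median change of -0.27 from chow to 2% iron, with 4 called higher (Pgd, Akr1b8, Hmox1 and Ftl1) and 12 lower, among them Gsta2 at -2.45. Over all genes 22.8% were called in this contrast, and 11.9% called higher. All 8 macrophage markers were higher here too, as were 4 of 6 stellate and fibroblast markers, and their part in the members' values was not tested.

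With cellulose as the fiber source, 2% iron gave the most calls. Of the 10 members, 7 were called higher and 0 lower, against 29.7% of all genes called and 15.4% called higher, and 8 were above 50 ppm without overlap, against 22.4%. The median change was 0.73. Nqo1 read 18.8, 19.4 and 9.70 CPM, a change of 2.22 (SE 0.30, edgeR adjusted p 0.00022). Srxn1 read 65.4, 101 and 57.8 CPM, at 1.35 (SE 0.18, edgeR adjusted p 0.00026), and Ugdh 238, 259.5 and 162 CPM, at 1.27 (SE 0.22, edgeR adjusted p 0.0011).

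Gclc and Gsr followed among the called genes. Gclc read 519.7, 525.5 and 357 CPM, at 0.91 (SE 0.18, edgeR adjusted p 0.0021), and Gsr 85.8, 98.1 and 80.5 CPM, at 0.56 (SE 0.09, edgeR adjusted p 0.00069). For 7 members (Nqo1, Gclc, Gclm, Srxn1, Txnrd1, Gsr and Ugdh) replicate 3 was the lowest of the cellulose group, and it held the highest macrophage sum of the 15 diet libraries, 768 CPM.

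The other two calls depended on single mice. Txnrd1 read 131, 157 and 125 CPM, at 0.38 (edgeR adjusted p 0.0119), and was lost without replicate 2 of the cellulose group, at 0.27 (0.0638). Abcc4 read 6.20, 7.15 and 10.3 CPM, at 1.93 (edgeR adjusted p 0.0186), and was lost without replicate 3 of the cellulose group (0.0585) or replicate 1 (0.0636) or 2 (0.0581) of the 50 ppm group. Not called were Gclm at 0.22, G6pdx at 0.46 and Nfe2l2 at 0.23. Without replicate 3 of the cellulose group Gclm was called at 0.35 (edgeR adjusted p 0.0451), and without replicate 2 of the 50 ppm group G6pdx at 1.46 (0.0164). Targets gave 15 higher and 3 lower of 39, and regulators 3 higher (Keap1, Maff and Sqstm1) and 1 lower (Cul3). Over all genes 29.7% were called and 15.4% called higher. Macrophage markers gave 8 of 8 higher and neutrophil markers 5 of 5 tested higher, with neutrophil sums of 6.97 to 80.6 CPM. The part of these cells was not tested here either.

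The difference between the 2 iron diets was tested itself. None of the 10 members was called, in a contrast where 11 genes were (0.0811%). DESeq2 and limma also called no member. At an unadjusted p under 0.05, 6 of 10 passed against 13% of all genes: Nqo1 at 0.76 (interval 0.19 to 1.34, edgeR adjusted p 0.259), Gclc at 0.45, Gclm at 0.34, Srxn1 at 0.59, Gsr at 0.31 and Ugdh at 0.71 (interval 0.24 to 1.17, edgeR adjusted p 0.200). Gsr was the member above without overlap, against 8.08% of all genes. Without replicate 3 of the cellulose group, Nqo1 was called at 1.02 (edgeR adjusted p 0.0467). So a called rise with cellulose and an uncalled one without it, as for Gclc, Txnrd1, Gsr, Ugdh and Abcc4, is not a called difference between the diets.

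In the panel all mice ate 2% iron, and the question is how far strains differ. Abcc4 varied most, from 1.84 CPM in CBA/J over a median of 8.99 to 75.6 CPM in NZB/BlNJ, a 41.1-fold range with a coefficient of variation of 91.9%. Srxn1 ran from 21.1 CPM in BXH8/TyJ over 44.3 to 365 CPM in BXH2/TyJ, 17.3-fold. Nqo1 ran from 3.17 CPM in KK/HlJ over 9.66 to 46.8 CPM in NZB/BlNJ, 14.8-fold. These 3 were the widest of the 10, and Nqo1 and Srxn1 were the members called on 2% iron in C57BL/6J.

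Gclc, Gclm and Ugdh varied less. Gclc ran from 121 CPM in BXD27/TyJ over 303 to 728 CPM in NZW/LacJ, 6.03-fold, with AXB5/PgnJ next at 720.8 CPM. Gclm ran from 146 CPM in BXD39/TyJ over 236 to 465.6 CPM in NZW/LacJ, 3.20-fold. Ugdh ran from 49.2 CPM in BXH8/TyJ over 130.4 to 349 CPM in NZB/BlNJ, 7.10-fold, with NZW/LacJ next at 339 CPM. NZW/LacJ was therefore first or second for all 3.

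Txnrd1 and Gsr had the narrowest ranges of the 10, while G6pdx and Nfe2l2 ranged more widely than Gclm. Txnrd1 ran from 89.4 CPM in BXD73/RwwJ over 122 to 249.6 CPM in NZW/LacJ, 2.79-fold, the smallest range of the 10 with a coefficient of variation of 18.1%. Gsr ran from 43.3 CPM in BALB/cByJ over 63.1 to 131 CPM in NZB/BlNJ, 3.03-fold. G6pdx ran from 5.43 CPM in BXD44/RwwJ over 10.5 to 21.3 CPM in AXB19/PgnJ, 3.92-fold. Nfe2l2 ran from 30.1 CPM in BXD22/TyJ over 74.2 to 127 CPM in KK/HlJ, 4.20-fold, so the strain with the most Nfe2l2 RNA was the one with the least Nqo1.

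**Figure D3:**
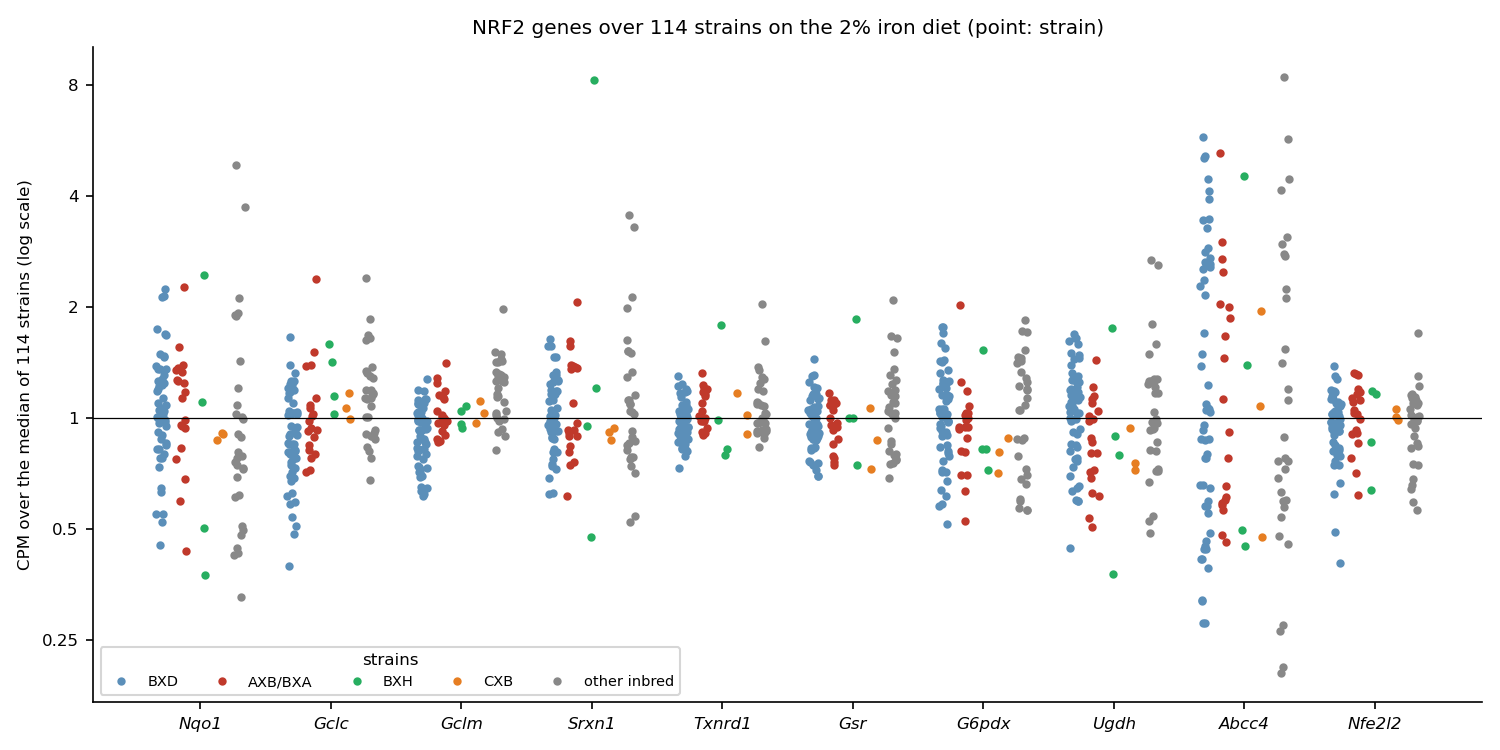
Level of each gene in 114 strains on the 2% iron diet, as CPM over the median of the strains (vertical log axis), 1 point per strain, colored by strain family. Abcc4 spreads widest, from 1.84 to 75.6 CPM, and Txnrd1 least, from 89.4 to 249.6 CPM.

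The panel has 1 mouse per strain, so a strain's genetic difference cannot be told apart from the difference between mice. As a scale, the SD of log2 CPM between strains was set against the SD within the diet groups of C57BL/6J. The ratio was 2.95 for Gsr, where 92.4% of 13410 genes had a lower one, 2.22 for Srxn1, 2.00 for Txnrd1, 1.86 for Gclc, 1.82 for Gclm, 1.80 for Abcc4, 1.71 for Nqo1, 1.69 for Ugdh and 1.61 for Nfe2l2, beside a median of 1.65 over all genes. G6pdx, at 0.602, varied more within the 5 diet groups than between strains, but its ratio was 1.40 against the 2 groups on 2% iron alone. That restriction gave 5.51 for Nfe2l2, BXD strains alone gave 1.32 for Srxn1, and log2(TPM + 1) gave 2.84 for Abcc4. The 2 mice of 129X1/SvJ differed by 1.04-fold for Gclm, 1.05-fold for Txnrd1, 1.77-fold for Nqo1, 1.77-fold for G6pdx and 1.59-fold for Abcc4. No member's strains fell into separate clusters by a mixture fit that asked for a separation (Ashman D) above 3 and a gain in BIC above 10. Abcc4 passed the limit on D (3.27, with clusters of 45 and 69 strains) but not on BIC (gain 5.52). Srxn1 passed on BIC (gain 22.2) but not on D (2.20).

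A few strains were high for many members at once. NZB/BlNJ and NZW/LacJ were each among the 3 highest strains for 6 members and BXH2/TyJ for 4, and BXH2/TyJ was among the 10 highest for 8, while 68 of the 114 strains were among the 10 highest for none. NZB/BlNJ read 4.85 times the strain median for Nqo1, 8.41 times for Abcc4, 2.68 times for Ugdh and 2.08 times for Gsr, but 0.931 times for Gclc, 0.992 times for Gclm and 0.593 times for Nfe2l2. NZW/LacJ differed from it in the glutathione genes, with 2.40 times for Gclc and 1.97 times for Gclm, and read 3.74 times for Nqo1, 2.60 times for Ugdh, 2.97 times for Abcc4 and 1.004 times for Nfe2l2. BXH2/TyJ read 8.25 times for Srxn1, 4.52 times for Abcc4, 2.44 times for Nqo1 and 0.640 times for Nfe2l2. KK/HlJ ran the other way in part, with 0.328 times for Nqo1 and 0.538 times for Abcc4 beside 1.65 times for Gclc, 2.13 times for Srxn1, 1.80 times for Ugdh and 1.71 times for Nfe2l2.

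**Figure D4:**
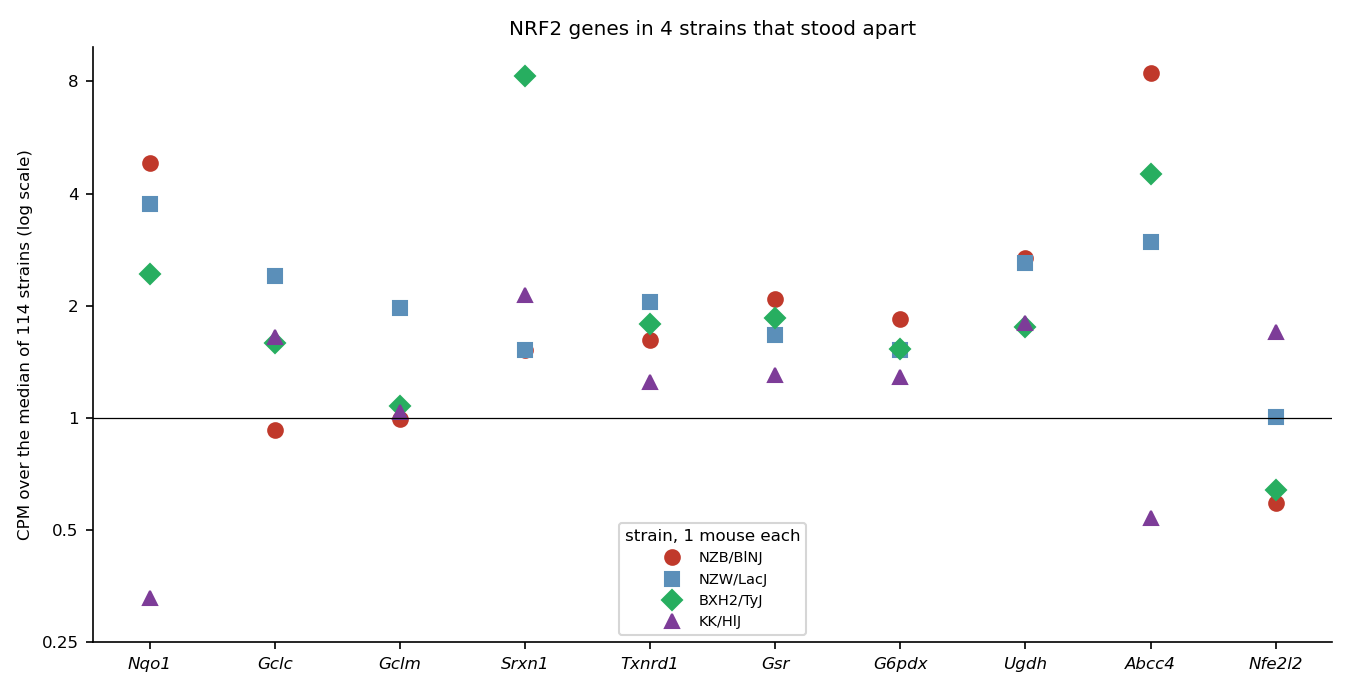
The 10 genes in 4 strains chosen after their values were seen, as CPM over the median of 114 strains (vertical log axis), 1 mouse each. Srxn1 in BXH2/TyJ and Abcc4 in NZB/BlNJ lie at 8.25 and 8.41 times the median, and Nqo1 in KK/HlJ lies at 0.328 times.

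Other cells differed in these livers as well. In BXH2/TyJ the neutrophil markers summed to 159.7 CPM and the erythroid markers to 1199 CPM, against panel medians of 5.13 and 183 CPM, with macrophage markers at 255 against 437 CPM. In NZB/BlNJ the sums were 65.1 CPM for neutrophils, 1520 CPM for erythroid cells and 140.1 CPM for proliferation, and in NZW/LacJ 10.4 CPM for neutrophils and 947 CPM for erythroid cells. KK/HlJ had the lowest hepatocyte sum of the 114 strains, 49934 CPM against a median of 96896 CPM, with macrophage markers at 752 CPM and neutrophil markers at 47.7 CPM. Whether these cells bear on the NRF2 genes was not tested in those 4 strains.

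Of the parental strains of the recombinant families, C57BL/6J read 7.98 CPM for Abcc4, DBA/2J 1.90, A/J 10.8 and C3H/HeJ 20.0 CPM, and for Nqo1 9.91, 4.65, 7.02 and 9.71 CPM. BALB/cJ and BALB/cByJ, near relatives, read 51.2 and 27.9 CPM for Abcc4 and 18.2 and 4.82 CPM for Nqo1, each from 1 mouse.

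Between the 2 large families, BXD and AXB/BXA, 1 of 10 members was called, against 11.6% of 13794 genes and 5.02% called lower in BXD. Gclm was 215 ± 39.03 CPM (SD, n = 56 strains) in BXD and 247 ± 35.5 CPM (n = 20 strains) in AXB/BXA, a log2 difference of -0.20 (SE 0.06, edgeR adjusted p 0.0330). The ranges overlapped, and with limma on log2(TPM + 1) it was -0.17 (adjusted p 0.155). Next came Ugdh, higher in BXD by 0.28 (edgeR adjusted p 0.0908). The other targets gave 1 higher in BXD, Gss, and 3 lower, Gsta3, Txn1 and Prdx1, of 39 tested, and of the 9 regulators 1, Mafk, was higher, all named after their values were seen.

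The members were then compared with each other across the 114 strains, as 45 pairs of log2 CPM, each with Pearson's r and Spearman's rho, two-sided p from 100000 permutations of strains and adjustment over the 45 pairs. Strains of a recombinant family share parents and are not fully independent. By r, 29 pairs passed, 25 positive and 4 negative. The smallest passing r was 0.20 in size, and other genes had an r to a member at least that far from 0 in 37.4% of cases and at least that high in 17.9%. By rho, 23 pairs passed, all among the 29. Of the 29, 24 kept an unadjusted p under 0.05 when the 2 strains farthest from the median of the first gene were left out. Without NZB/BlNJ, NZW/LacJ and BXH2/TyJ, left out after values were seen, 22 pairs passed: 8 of the 29 were lost, among them Nqo1 with Txnrd1 (r 0.18) and Txnrd1 with G6pdx (r 0.10), and Ugdh with Nfe2l2 was gained (r 0.24). Within BXD 10 pairs passed, within the 31 other inbred strains 17, and within the 20 AXB/BXA strains 0, with 8 there at an unadjusted p under 0.05. The 29 had the same sign as over all strains for 27 pairs in BXD, 27 in AXB/BXA and 29 in the other inbred strains.

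Srxn1, Txnrd1, Gsr and Ugdh, grouped after their values were seen, rose and fell together. Their 6 pairs had r from 0.50 to 0.61 and rho from 0.41 to 0.66, at a permutation p of 1e-05 each for r, the smallest that 100000 permutations can give (adjusted 3.2e-05). Within families r ran from 0.27 to 0.56 in BXD, from 0.17 to 0.65 in AXB/BXA and from 0.57 to 0.80 in the other inbred strains. Srxn1 with Ugdh had r 0.61 and rho 0.66 (permutation p 1e-05 each), and 0.66 without the 2 strains farthest from the median of Srxn1. Each of the 6 r was higher than that of at least 99.65% of all genes to the same member. Because the genes were grouped after these r were seen, the percentage and the permutation p describe single pairs and do not test the group.

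Nqo1 with Abcc4 had the highest r of the 45, 0.61, with rho 0.58 (permutation p 1e-05 each, adjusted 3.2e-05 for r and 6.4e-05 for rho). It was 0.59 without NZB/BlNJ and NZW/LacJ, and 0.57 in BXD, 0.42 in AXB/BXA and 0.71 in the other inbred strains. Nqo1 also followed Ugdh (r 0.45, rho 0.36), Gsr (r 0.42, rho 0.31) and Srxn1 (r 0.41, rho 0.42), with adjusted permutation p of 3.2e-05 for each r and of 0.00028, 0.0018 and 0.00016 for rho. Without NZB/BlNJ and NZW/LacJ these r were 0.34, 0.30 and 0.40. Abcc4 did not follow them beyond the threshold, except Srxn1 at r 0.20 (adjusted permutation p 0.0433) with rho 0.10 (adjusted 0.338).

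The 2 subunits of glutamate-cysteine ligase were only loosely tied. Gclc with Gclm had r 0.35 and rho 0.35 over all strains (adjusted permutation p 0.00032 and 0.00066), 0.32 without BXD27/TyJ and NZW/LacJ, and 0.47 in the other inbred strains, but 0.00 in the 56 BXD. Gclc followed Txnrd1 (r 0.44, rho 0.34), Srxn1 (r 0.42, rho 0.38), Ugdh (r 0.39, rho 0.36) and Nfe2l2 (r 0.38, rho 0.38), with 0.00062 the largest adjusted permutation p of these. Without BXD27/TyJ and NZW/LacJ these r were 0.39, 0.39, 0.34 and 0.33.

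Nfe2l2 RNA did not track most of the other members. Its median r to the other 9 was -0.10, beside 0.42 for Gsr and 0.41 for Srxn1, and 0.01 to all genes. With Abcc4 it had r -0.43 and rho -0.39 (adjusted permutation p 3.2e-05 and 0.00015), -0.42 without NZB/BlNJ and BXD51/RwwJ, and -0.39 in BXD, -0.27 in AXB/BXA and -0.55 in the other inbred strains. With Nqo1, r was -0.32 (adjusted permutation p 0.0014), or -0.29 without NZB/BlNJ and NZW/LacJ, but rho -0.13 (adjusted 0.256). These negative values depended on the scale. On log2(TPM + 1) Abcc4 with Nfe2l2 was -0.27 and Nqo1 with Nfe2l2 -0.01, and the median r of Nfe2l2 to the other members was 0.21, where its median to all genes was 0.23.

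**Figure D5:**
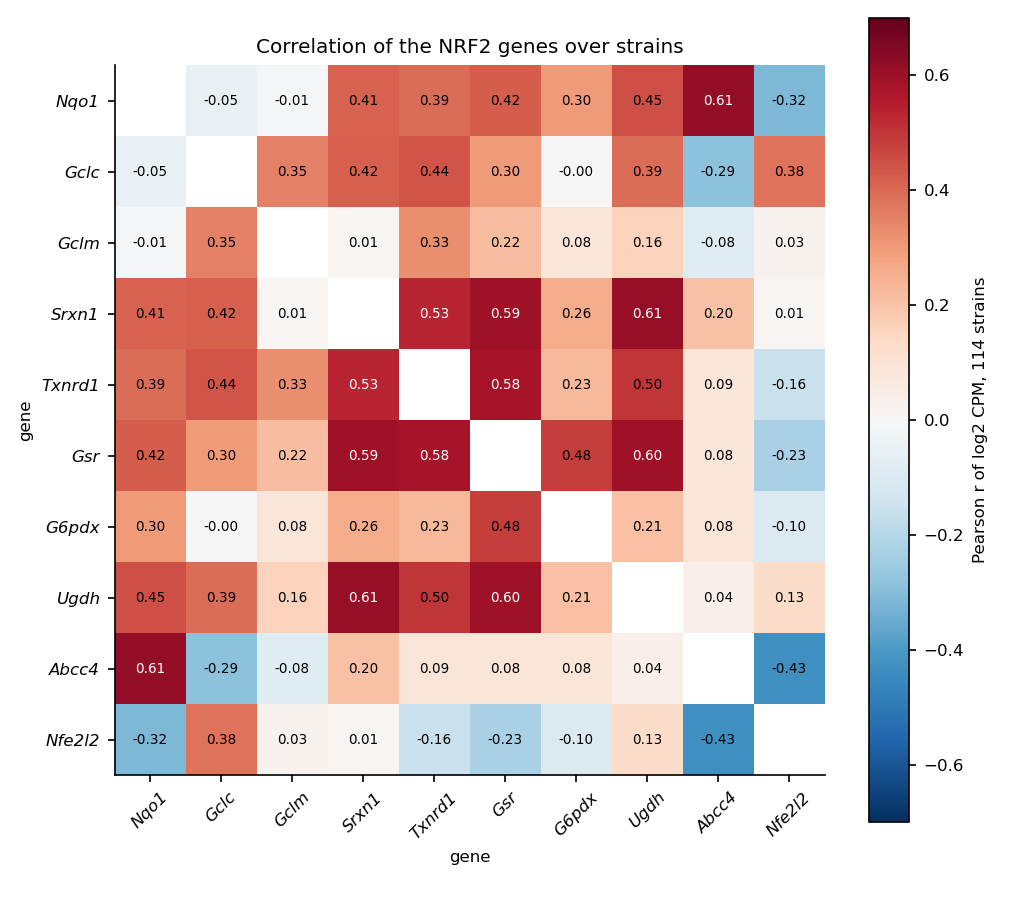
Pearson's r of log2 CPM over 114 strains for each pair of the 10 genes (both axes list genes), with r printed in each cell and the diagonal left blank. Srxn1, Txnrd1, Gsr and Ugdh, grouped after their values were seen, form a block of 0.50 to 0.61. Nfe2l2 is at -0.43 with Abcc4 and -0.32 with Nqo1.

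G6pdx stood apart from the other members in one relation. Over the 114 strains it followed the summed macrophage markers at r 0.63 and rho 0.66 (permutation p 1e-05 each, adjusted 1e-04 over the 10 members), 0.62 without CE/J and SJL/J, and 0.66 in BXD, 0.47 in AXB/BXA and 0.76 in the other inbred strains. No other member passed with that sum, with r from -0.13 to 0.16. The same comparison with the summed cholangiocyte markers gave 1 of 10, Gsr, at r 0.29 and rho 0.33 (adjusted permutation p 0.0187 and 0.0047), and 0.28 without AXB19b/PgnJ and BXH14/TyJ. These 20 relations were added after values had been seen, and the other marker sets were not compared in this way.

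The genes most like each member across strains were taken by rule as the 3 highest Pearson r among the 12906 genes whose mean reached 1 CPM, with predicted genes passed over. Nqo1 was most like Fth1, the ferritin heavy chain (r 0.71), then Nop14 and Abcc4. Srxn1 was most like Sqstm1, which encodes the autophagy adaptor p62 (r 0.71), and Gsr most like Mast2 (r 0.74), which was also among the 3 for Srxn1. Txnrd1 was most like Eid3 (r 0.62), whose mean of 1.24 CPM was near the limit of 1 CPM, followed by Gsr and the heme transporter gene Slc48a1. Ugdh was most like Srxn1 and Gsr, both members, then Mvp. Abcc4 was most like Sgms1 (r 0.73) and the aldo-keto reductase Akr1b7, Gclc like Ugt2b35 (r 0.61), Gclm like Sh3d19 (r 0.52) and Nfe2l2 like Mmp15 (r 0.72). G6pdx was most like Pkm (r 0.78), Msn and Srgn. All were computed over the same 114 libraries, and likeness is a description.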

How the data were processed

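Liver RNA was sequenced by the authors, and 2 kinds of table were used, one of expected counts and one of TPM per gene, for 15 diet libraries and 115 panel libraries. Per the submitters' processing notes, kallisto 0.46 and mm10 were used. The strand setting and other steps are not given in the sources used here. The deposited values are expected counts: 26.5% of all values of the diet table and 27.4% of the panel table were not whole, so they were rounded for the count tests, which had been planned for whole counts. The TPM values were deposited by the authors and were tested only as an alternative, on log2(TPM + 1). Identifiers were named from GENCODE M21 (34845 of 35274 and 35612 of 35711 matched). Promoter windows came from RefSeq on GRCm38.p6.

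Counts were scaled with TMM factors, filtered with filterByExpr and tested with edgeR 4.0.16 (quasi-likelihood) in R 4.3.3, with 1 fit over all 5 diets and Benjamini-Hochberg adjustment over all genes. The script was checked on simulated data. Alternatives used limma 3.58.1, DESeq2 1.42.0, other filters, RLE factors, and leaving out each mouse. Correlations used log2 CPM with a prior count of 2 and 100000 permutations (Python 3.11.15, numpy 2.4.6, scipy 1.17.1, pandas 2.3.3, scikit-learn 1.9.0, matplotlib 3.10.9). The 2 mice of 129X1/SvJ were averaged. Per the labels, the 3 libraries of a diet are separate samples, and an exact permutation test of 3 against 3 could not go below a two-sided p of 0.1. Total counts set the precision, and low genes such as Abcc4 and Nqo1 carry the largest counting error.

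The 10 members were always named. Regulators and other targets were to be named where called in 2% iron against 50 ppm, and other genes named in the text were chosen after their values were seen. The members and lists were chosen with earlier results of these data known.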

Additional observations from a re-analysis of the deposited data

Results flagged for a closer look

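Among the 4 BXH strains, BXH2/TyJ lay far from the other three for 2 of the 10 genes, and chance flags about 1 in 20 groups. Srxn1 read 365 CPM in BXH2/TyJ against 53.6 CPM in BXH10/TyJ, 42.2 CPM in BXH14/TyJ and 21.1 CPM in BXH8/TyJ. G6pdx read 16.1 CPM in BXH2/TyJ against 8.70, 8.67 and 7.63 CPM. Each value comes from 1 mouse.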

How the results depend on the processing

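No paired analysis was possible because the labels give the diet samples no replicate numbers. Members called on 2% iron against 50 ppm, 2 in the main analysis, were 4 with the compared groups alone, 3 with DESeq2, 1 with limma on log2(TPM + 1) or log2(TPM + 0.1), and 1 to 3 with a mouse left out. Against 500 ppm, 1 became 0 to 2 with a mouse left out. Against chow, 2 became 4 with the compared groups alone, 1 with limma on either TPM scale (Nqo1, with Srxn1 and G6pdx lost) and 0 to 2 with a mouse left out. For chow against 50 ppm, 0 became 1 with no filter and with DESeq2. For cellulose against 2% iron, 0 became 0 to 1 with a mouse left out. For BXD against AXB/BXA, 1 became 0 with limma on either scale. The cause was not tested. Of 990 recomputed log2 changes, 135 were called in both analyses and 810 in neither, 29 lost a call and 16 gained one. The sign changed in 44, all called in neither, among them Abcc4 on 500 ppm without its replicate 2 (-0.26). Of 360 recomputed correlations 19 changed sign, 15 of them called in neither analysis. The other 4 were on log2(TPM + 1), where 36 pairs passed: Nqo1 with Gclm (0.20), Gclc with G6pdx (0.24), Txnrd1 with Nfe2l2 (0.30) and Gsr with Nfe2l2 (0.21). SD ratios moved for Srxn1 (1.32 in BXD alone), for G6pdx (1.40) and Nfe2l2 (5.51) with the 2 iron groups alone, and for Abcc4 (2.84 on the TPM scale). With limma on log2(TPM + 1) the called genes split differently, with 66.6% higher against 54.3% for 2% iron against 50 ppm, 74.7% against 58.1% against 500 ppm, 71.0% against 52.1% against chow, and 73.7% against 51.7% with cellulose. In that fit the median change of all genes was 0.10 against chow and 0.11 with cellulose, beside 0.01 and 0.00. Over all genes, limma called 1208 against 2127 for 2% iron against 50 ppm, 910 against 1538 against 500 ppm, 1945 against 3087 against chow and 2657 against 4026 with cellulose, 21 against 53 for chow against 50 ppm, 18 against 11 for cellulose against 2% iron, and 906 against 1606 for BXD against AXB/BXA. DESeq2 called 138 for chow against 50 ppm, and 1.79% against 0.0811% of genes for cellulose against 2% iron, 41.5% of them higher against 9.09%. The compared groups alone gave 924 for 2% iron against 500 ppm, 26 for chow against 50 ppm and 23 for cellulose against 2% iron. Leaving out a mouse gave 1003 to 1640 called genes for 2% iron against 50 ppm, 788 to 2204 against 500 ppm, 4 to 62 for chow against 50 ppm and 0 to 212 for cellulose against 2% iron.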
